A study of Macaca mulatta with 2 samples.

Results

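The genes described here are 7 zinc finger genes of the rhesus macaque, ZNF25, ZNF836, ZNF286A, ZNF709, ZNF808, ZNF700 and ZNF84, out of 7904 genes with a deposited abundance. They were taken by their Ensembl identifiers. They were chosen by symbol with their TPM values in both libraries already known, so every level, ratio and isoform share below is a description and supports no claim about the choice. Total RNA from 1 sample of peripheral blood mononuclear cells (PBMC, the fraction of blood that holds lymphocytes and monocytes) was prepared as 2 libraries, titled LongInsert and Regular. The labels name no treatment, genotype or age for either, and each title has 1 library, so no difference below can be set against a spread between replicates. The design text names paired reads of 300 nt on a MiSeq and of 75 nt on a GAIIx, but the name of the table titled LongInsert holds HiSeq and that of the table titled Regular holds MiSeq, while the protocol's size selection is described for the MiSeq library. The run behind each title is therefore not settled, and LongInsert and Regular are used here as titles only. Abundance is in TPM, a transcript abundance scaled for transcript length and for the library total. A gene's TPM is the sum over its listed transcripts.

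Zinc finger proteins of the C2H2 type read DNA with a row of small zinc-binding loops, each of which contacts a few bases. In the KRAB type, the finger array is joined to a Krüppel-associated box, which binds the corepressor TRIM28. TRIM28 in turn gathers the histone methyltransferase SETDB1, the heterochromatin proteins of the HP1 family and the NuRD deacetylase complex, and the bound DNA, often a transposable element, is packed into silent chromatin. The family is large, is expressed at low levels in most tissues, blood cells included, and has grown by repeated duplication, so that members resemble each other in sequence. The name KRAB-type rests on the gene symbols here, since no protein domain was read from the files. Of 34 blood cell markers looked for, 2 were among the listed genes with a symbol. The platelet integrin gene ITGB3 had 3.29 TPM in LongInsert against 1.77 TPM in Regular, and the haemoglobin gene HBA1 had 0.0093 and 0.0035 TPM. With so few markers, the make-up of the sample by cell type was not checked.

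The first question was how far both preparations of the same RNA agreed on the level of each gene. All 7 genes had more TPM in LongInsert than in Regular. So did 69.2% of the 1310 genes averaging at least 1 TPM over both libraries, and 77.3% of those with a symbol. The summed abundance of the 7 genes was 83.2 TPM in LongInsert against 18.6 TPM in Regular, a ratio of 4.47. Taken as a share of the listed TPM, the sum was 0.0639% in LongInsert and 0.0122% in Regular, a ratio of 5.25, larger than before because the listed total was lower in LongInsert, at 130234 TPM, than in Regular, at 152883 TPM.

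ZNF836 was the most abundant of the genes in both libraries. It had 24.2 TPM in LongInsert against 9.25 TPM in Regular, a linear ratio of 2.61. Its place among all listed genes was almost the same in each, at percentile 94.5 in LongInsert and 93.5 in Regular. ZNF84 was similar in this respect. It had 10.2 TPM in LongInsert against 4.70 TPM in Regular, the smallest linear ratio of the 7 genes at 2.17, and stood at percentile 91.8 in LongInsert and 91.7 in Regular.

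ZNF808 encodes a primate-specific repressor known to bind MER11 elements, remnants of an endogenous retrovirus, and its loss in humans causes failure of the pancreas to form. It had 20.6 TPM in LongInsert against 1.35 TPM in Regular, a linear ratio of 15.3. In LongInsert its level lay close to that of ZNF836, with ZNF836 only 1.17 times as high. In Regular ZNF836 was 6.86 times as high as ZNF808. ZNF700 had 16.5 TPM in LongInsert against 2.15 TPM in Regular, a linear ratio of 7.65. In each library ZNF700 was the third of the 7 genes.

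The remaining 3 genes were under 1 TPM in Regular. ZNF286A had 5.10 TPM in LongInsert against 0.508 TPM in Regular, a linear ratio of 10.04. ZNF709 was the least abundant of the genes in LongInsert, with 1.88 TPM, and had 0.646 TPM in Regular, a linear ratio of 2.92. ZNF25 had 4.81 TPM in LongInsert against 0.00205 TPM in Regular. Although ZNF25 stood at percentile 89.0 of the listed genes in LongInsert, it stood at percentile 2.38 in Regular, among the lowest values of that table. No linear ratio is given for ZNF25, because a value so near 0 cannot be told from too few reads and the depth of the libraries is not known.

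**Figure D1:**
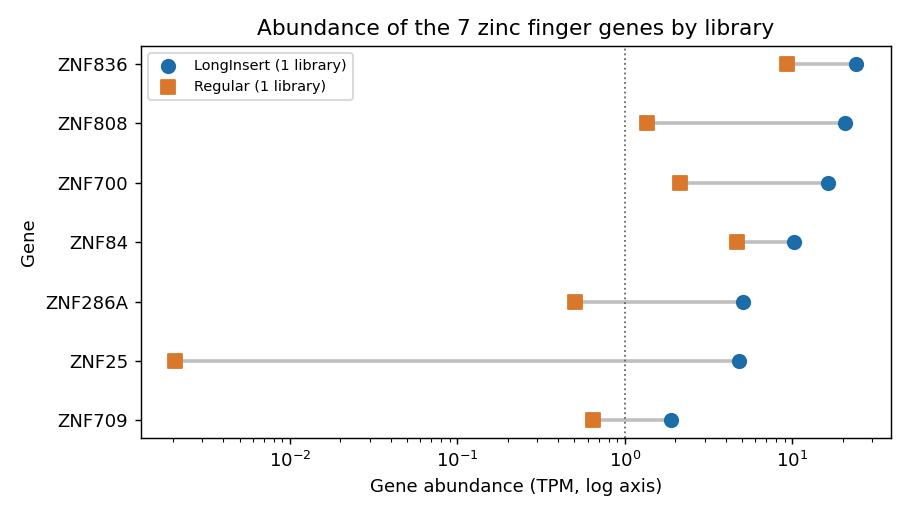
Abundance of each of the 7 genes in TPM (x axis, logarithmic) in LongInsert (circles) and Regular (squares), 1 library each, with no error bars because there was no replicate. The dotted line marks 1 TPM. Every circle lies to the right of its square, and the gap is widest for ZNF25, at 4.81 and 0.00205 TPM.

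The order of the genes changed with the library. From highest to lowest it was ZNF836, ZNF808, ZNF700, ZNF84, ZNF286A, ZNF25 and ZNF709 in LongInsert, and ZNF836, ZNF84, ZNF700, ZNF808, ZNF709, ZNF286A and ZNF25 in Regular. ZNF808 exceeded ZNF84 by 2.02 times in LongInsert, whereas ZNF84 exceeded ZNF808 by 3.48 times in Regular. ZNF836 and ZNF84 together made up 41.3% of the summed TPM of the 7 genes in LongInsert and 75.0% in Regular. Leaving ZNF25 aside, the highest gene was 12.8 times the lowest in LongInsert and 18.2 times the lowest in Regular. With no replicate, it cannot be said which neighbours in either order differ beyond the error of a library.

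Differences were next put on a log2 scale with 1 TPM added to each value, log2((LongInsert + 1)/(Regular + 1)), which understates the change of low genes, and were set apart at 2-fold or more. The minimum used for the counts, an average of both libraries of at least 1 TPM, was met by all 7 genes. A gene low in Regular can meet it only by being high in LongInsert, so the minimum itself favours a higher call for such genes. ZNF25, ZNF286A and ZNF709, all under 1 TPM in Regular, met it in this way, and the first 2 were called higher. On this scale LongInsert was at least 2-fold above Regular in 5 of the 7 and 2-fold below it in 0. Of all 1310 genes at that minimum, 50.8% were higher by 2-fold or more and 19.8% were lower, so being higher in LongInsert was common in the table as a whole. Among the 365 genes with a symbol, the kind of gene that these 7 were drawn from, the shares were 53.7% higher and 9.59% lower. The log2 ratios were 3.20 for ZNF808, 2.53 for ZNF25, 2.47 for ZNF700, 2.02 for ZNF286A and 1.30 for ZNF836. ZNF84 fell just short of 2-fold at 0.97, and ZNF709 was at 0.81. The median of the 7 was 2.02, against 1.04 for all genes and 1.12 for genes with a symbol.

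Single genes spread widely around that background. The ratio of ZNF808 exceeded that of 91.0% of the genes with a symbol, ZNF25 that of 84.1%, ZNF700 that of 82.5% and ZNF286A that of 74.0%. ZNF836 was near the middle, above 52.9% of them, and ZNF84 and ZNF709 were below the middle, above 44.9% and 39.7%. The added 1 TPM caps the ratio of a low gene. At its mean of 2.40 TPM, ZNF25 could have reached at most 2.54 and had 2.53, so its place in this order is set by its mean. With an added 0.1 TPM in place of 1 TPM its log2 ratio was 5.59, the highest of the 7 genes, and with 5 TPM it was 0.97.

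Because ratios in the table also depended on abundance, the genes were set beside others of like level. Among the 5 genes averaging 1 to 10 TPM, 3 were higher by 2-fold or more, and in that range 60.4% of the 144 genes with a symbol were. The median log2 ratio of those 144 genes was 1.45. The 2 genes averaging 10 to 100 TPM, ZNF836 and ZNF808, were both higher, as were 55.3% of 159 genes with a symbol there, whose median was 1.12. The count of higher genes thus lay close to the background in the lower range, and 2 genes are too few to read a share from in the upper one.

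**Figure D2:**
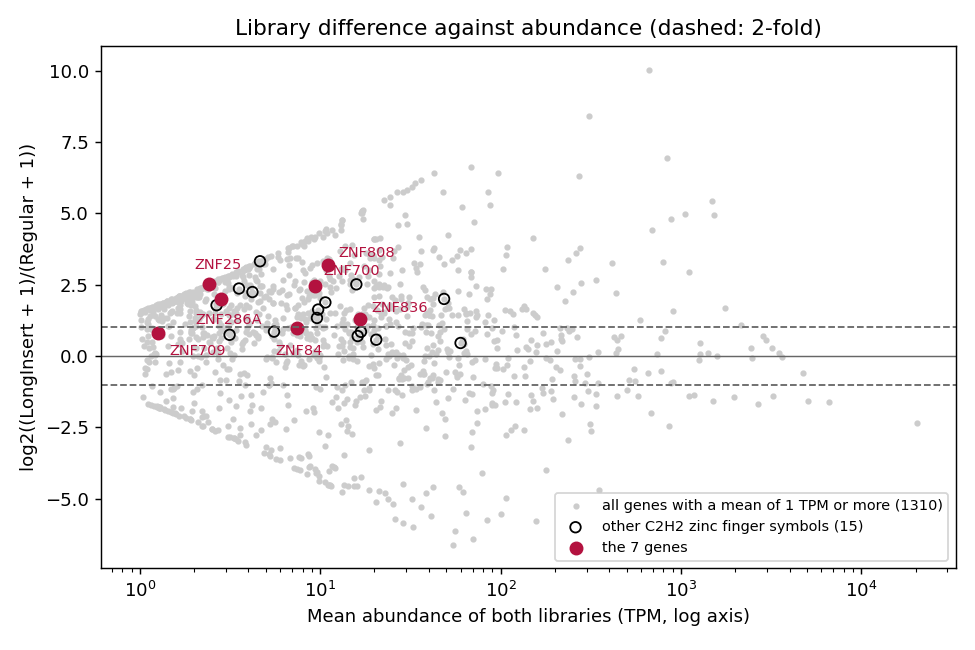
Log2 ratio of LongInsert over Regular with 1 TPM added (y axis) against mean TPM of both libraries (x axis, logarithmic) for the 1310 genes averaging at least 1 TPM (grey), 15 other C2H2 zinc finger genes (open circles) and the 7 genes (filled, named). Dashed lines mark 2-fold. All 7 lie above 0, from 0.81 to 3.20, and ZNF25 lies on the upper edge of the grey points, where the Regular value is near 0.

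In LongInsert all 7 genes reached 1 TPM and in Regular 4 did, namely ZNF836, ZNF808, ZNF700 and ZNF84. Of the 1322 listed genes at 1 TPM or more in LongInsert, 63.0% also reached it in Regular, so the share of these genes was near that of the table. Values of at least 1 TPM in LongInsert and under 0.1 TPM in Regular were seen in 22.0% of those 1322 genes, and in 1 of the 7, ZNF25. ZNF286A and ZNF709, though under 1 TPM, stood at percentiles 85.5 and 86.0 of the listed genes in Regular, because most listed genes were near 0. In LongInsert they stood at percentiles 89.2 and 85.6, so by rank ZNF709 was not higher in LongInsert.

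The second question was whether both libraries placed a gene's abundance on the same transcript. A single transcript was listed for 4 of the genes, as for 90.5% of all listed genes, so ZNF836 (ENSMMUT00000002829), ZNF286A (ENSMMUT00000003337), ZNF808 (ENSMMUT00000014547) and ZNF700 (ENSMMUT00000038732) give no information on isoforms. ZNF84 and ZNF709 had 2 listed transcripts each and ZNF25 had 9, which is rare in these tables, since 12 genes had 9 or more. The leading transcript was the same in both libraries in 1 of these 3 genes, ZNF84. Over all 260 genes with more than 1 transcript and an average of at least 1 TPM, it was the same in 70.4%.

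In ZNF84 nearly all of the abundance was on ENSMMUT00000019459 in each library. That transcript had 10.2 TPM in LongInsert against 4.67 TPM in Regular, or 99.7% and 99.4% of the gene. The other, ENSMMUT00000045305, had 0.0339 and 0.0287 TPM. The lower level of ZNF84 in Regular was therefore carried by the leading transcript, and the split between both was within 0.277 percentage points.

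ZNF709 showed a reversal between its transcripts. ENSMMUT00000007374 had 1.86 TPM in LongInsert against 0.25 TPM in Regular, or 98.9% and 38.7% of the gene. ENSMMUT00000038724 went the other way, with 0.0213 TPM in LongInsert against 0.396 TPM in Regular, or 1.13% and 61.3%. It was the only 1 of the 17 listed transcripts of these genes with more TPM in Regular than in LongInsert. On the transcript scale the log2 ratios with 1 TPM added were 1.20 and -0.45, so the first of the pair passed 2-fold although the gene sum, at 0.81, did not. A difference of 50 points or more in the usage of the LongInsert leader was seen in 14.2% of the 260 genes, and ZNF709, with 60.2 points, was among them. All of its transcript values are below 2 TPM, so these shares rest on little abundance.

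ZNF25 had all 9 transcripts lower in Regular. In LongInsert ENSMMUT00000042983 led with 3.52 TPM, or 73.1% of the gene. ENSMMUT00000002064, ENSMMUT00000042979 and ENSMMUT00000005888 followed at 0.437, 0.365 and 0.356 TPM, and the other 5 ranged from 0.00597 to 0.0787 TPM. In Regular 7 of the 9, the LongInsert leader included, were under 0.0001 TPM, a level at which 2.98% of all listed transcripts lay in that library. The other 2, ENSMMUT00000042978 and ENSMMUT00000042977, had 0.000911 and 0.000872 TPM and made up 44.4% and 42.4% of a sum of 0.00205 TPM. Which transcript led in Regular therefore has no weight, and the comparison of ZNF25 isoforms comes down to their presence in LongInsert and near absence from the Regular table. Of the 12 genes with 9 or more transcripts, 4 reached 1 TPM in LongInsert. Another of those 4 was also under 0.1 TPM in Regular, at 0.00683 TPM.

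**Figure D3:**
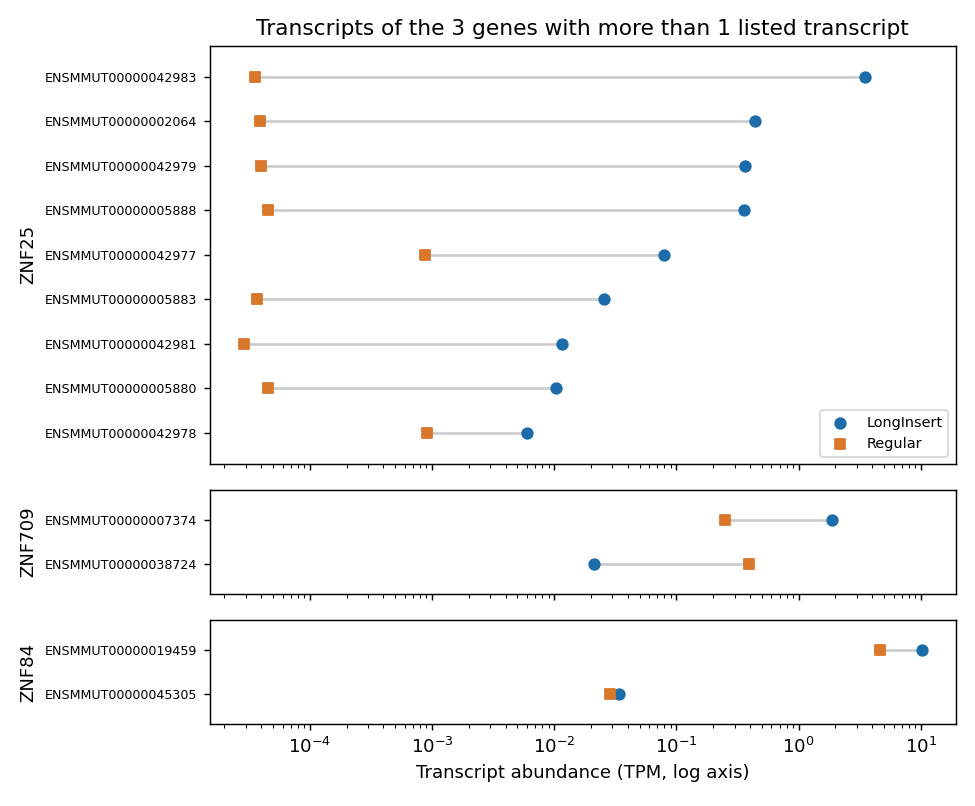
TPM of each listed transcript (x axis, logarithmic) of ZNF25 (top), ZNF709 (middle) and ZNF84 (bottom) in LongInsert (circles) and Regular (squares), 1 library each. The squares of ZNF25 are all below 0.001 TPM. In ZNF709 the order of the pair is swapped between libraries, and in ZNF84 it is the same.

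Other zinc finger genes gave a comparison within the family. Apart from the 7, 18 listed genes had a symbol of the C2H2 zinc finger kind, taken by name and not by value, and 15 of them had a mean of 1 TPM or more. Of these 15, 9 (60.0%) were at least 2-fold higher in LongInsert and 0 were lower, with a median log2 ratio of 1.63. Among the 9 higher, ZNF839, ZNF532, ZNF852 and ZNF594 were under 1 TPM in Regular and met the minimum only through LongInsert. The share of higher genes was near the background of 50.8% of all genes and 53.7% of genes with a symbol. All 15 had more TPM in LongInsert, against 69.2% of the 1310 genes and 77.3% of those with a symbol. After centring, the subtraction of the median ratio of abundant genes, ZNF706 and ZNF623 turned to -0.14 and -0.02. The other 13 stayed above 0, against 59.6% of all genes. ZNF706, a small and widely expressed protein, had the highest mean of both libraries, with 69.6 TPM in LongInsert against 50.4 TPM in Regular, with the lowest log2 ratio of the 15 at 0.46. ZNF101, with 78.4 and 18.8 TPM, was above it in LongInsert and was past 2-fold. ZNF623 had 24.6 and 16.3 TPM, ZSCAN26, which carries a SCAN dimerisation domain, had 21.9 and 11.7 TPM, and ZNF195 had 20.2 and 12.1 TPM. All 3 were within 2-fold.

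Most of the others named from that list lay past 2-fold. ZNF518A had 27.7 TPM in LongInsert against 4.03 TPM in Regular, ZNF252 had 17.4 and 3.997 TPM, ZNF236 had 15.2 and 4.25 TPM, and ZNF595 had 14.2 and 5.02 TPM. ZNF598, a ubiquitin ligase that marks collided ribosomes, had 7.43 and 3.66 TPM. It was within 2-fold only with 1 TPM added, at a log2 ratio of 0.85. ZNF839 was the gene most like ZNF25 in being nearly missing from Regular, with 9.25 and 0.025 TPM and a log2 ratio of 3.32. The added 1 TPM caps that ratio in the same way. ZNF532 had 7.60 and 0.818 TPM. The other 3 at this minimum were ZNF852, ZNF606 and ZNF594. At a mean under 1 TPM were ZNF419, with 0.864 and 0.941 TPM, ZNF224, with 0.504 and 0.031 TPM, and ZNF600, which was near 0 in both. ZNF419 was the only 1 of the 25 zinc finger genes, the 7 included, with more TPM in Regular.

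Of 45 genes listed as partners in KRAB repression, 4 were among the genes with a symbol, and TRIM28 and SETDB1 were not among them. GATAD2A, a subunit of the NuRD complex, had 38.4 TPM in LongInsert against 1.28 TPM in Regular, a log2 ratio of 4.11. CBX1, which encodes HP1 beta, a reader of methylated histone H3, had 10.6 and 0.0173 TPM, a log2 ratio of 3.52. Its Regular value was near 0, at percentile 23.3 of the listed genes, so the added 1 TPM caps this ratio as it did for ZNF25. CBX1 also met the minimum mean only through LongInsert. SENP1, a protease that removes SUMO, had 27.0 and 12.3 TPM, a log2 ratio of 1.07. UHRF1, which brings the maintenance DNA methyltransferase to newly copied DNA, had less in LongInsert, with 1.31 and 2.69 TPM. It was within 2-fold only with 1 TPM added, at a log2 ratio of -0.68. So 3 of 4 were higher by 2-fold or more and 0 were lower, beside 50.8% and 19.8% of all genes. After centring, 2 of the 4 were higher by 2-fold or more and 1, UHRF1, was lower, against 38.5% and 25.5% of all genes. Most of the pathway was not analysed here.

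Genes outside the family had similar pairs of values. The gene nearest to each of the 7 was looked for among 695 other genes with a symbol, by distance over the log2(TPM + 1) values of the 2 libraries, which is a weak measure with so few libraries. For ZNF836 it was RSPRY1, with 25.4 TPM in LongInsert against 9.46 TPM in Regular, and for ZNF808 it was BMP2K, with 21.3 and 1.22 TPM. For ZNF700 it was PLEKHM1, with 16.9 and 2.38 TPM. ZNF84 was nearest to SNRPD2, a core protein of the spliceosome, with 10.5 and 4.60 TPM. ZNF25 was nearest to OTOG, which encodes otogelin of the inner ear, with 4.99 and 0.0114 TPM. ZNF286A was nearest to RSKR, with 5.85 and 0.355 TPM, and ZNF709 to STARD9, a kinesin, with 1.89 and 0.448 TPM.

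The chromosomal setting was read from the order of genes in RefSeq's annotation of the T2T-MMU8v2.0 assembly. Its build was not matched to that of the tables, so no coordinates are given. By symbol, 5 of the 7 genes were found there, all but ZNF25 and ZNF808. Among the 10 nearest protein-coding genes, 5 on each side, ZNF836 had 9 with a ZNF symbol, among them ZNF616 and ZNF766. ZNF709 had 7, with ZNF799 and ZNF564 directly beside it, and ZNF700 had 4. ZNF84, near the end of its chromosome, had 9 such neighbours in all, of which 6 were ZNF genes, with ZNF26 and ZNF140 directly beside it. ZNF286A had 1, ZNF287. Of the 416 ZNF genes in that annotation 38.5% had 4 or more ZNF neighbours, as did 1.36% of all 21513 protein-coding genes. ZNF700 and ZNF709 lie on the same chromosome with 11 protein-coding genes between them, 7 of which are ZNF genes. None of the ZNF neighbours named in that annotation was among the listed genes with a symbol, so the 7 genes could not be compared with the ZNF genes nearest to them. For the pair in the same stretch, ZNF700 and ZNF709, the levels were 16.5 and 1.88 TPM in LongInsert, and 2.15 and 0.646 TPM in Regular. How reads shared by such related genes were divided is not given in the sources used here, and the levels of single genes are uncertain to that extent.

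The size of the difference depended on the scaling. Its direction cannot change with the added TPM, so of the settings given here only centring could have reversed it. After centring, which subtracts the median log2 ratio of 0.59 found among genes averaging at least 10 TPM, 4 of the 7 genes were higher by 2-fold or more and 0 were lower, against 38.5% and 25.5% of all genes. ZNF836 fell below 2-fold at 0.70. All 7 genes stayed above 0 after centring, against 59.6% of all genes. With 0.1 TPM added in place of 1 TPM, all 7 passed 2-fold, against 54.2% of all genes, ZNF84 at 1.10 and ZNF709 at 1.41. With 5 TPM added, 3 did, against 32.1%, namely ZNF836, ZNF808 and ZNF700. ZNF808 and ZNF700 stayed above 2-fold in each of these settings, with log2 ratios no lower than 2.01 and 1.59.

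**Figure D4:**
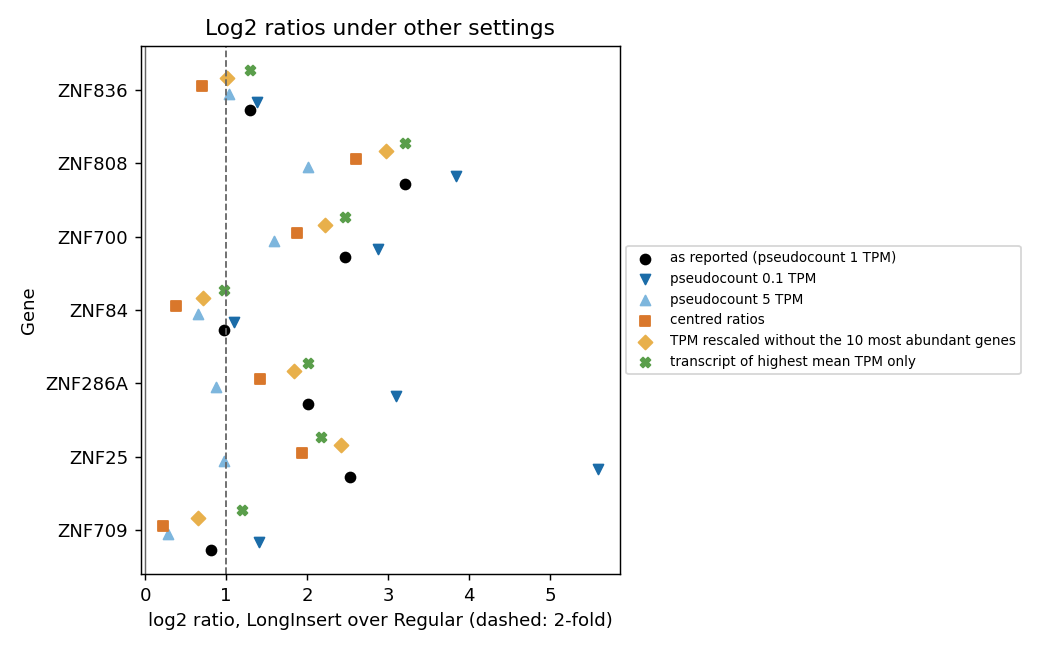
Log2 ratio of LongInsert over Regular (x axis) for each gene as reported and under 5 other settings (symbols), with a dashed line at 2-fold. All points lie above 0, which another pseudocount could not have changed. The points of ZNF808 and ZNF700 lie above 2-fold in every setting drawn, and ZNF25 spans the widest range, from 0.97 to 5.59.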

How the data were processed

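RNA of 1 macaque PBMC sample was measured in 2 libraries, grouped by their titles. The authors deposited TPM per transcript, per the file headers, in 1 table for each library, with 9267 transcripts and no value of exactly 0. The listed values sum to 13.0% of 1000000 TPM in LongInsert and 15.3% in Regular. CASAVA 1.8.2, Trimmomatic and STAR are listed in the submitters' processing notes with no role or order, and Isolator appears in the series title. The build, annotation and settings were not given in the sources used here. TPM keeps no read number, so depth is unknown and no counting interval is given.

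Transcripts were summed per gene in Python 3.11.15 with pandas 2.3.3 and numpy 2.4.6. A table pairing Ensembl identifiers with symbols matched 724 of 7904 genes. The calculation was tested on simulated data, in which exact changes without noise were placed in abundant genes only. It therefore checks the arithmetic, and not the calls of genes as low as these 7 were in Regular. No test was run, since each title has 1 library. The members and lists were chosen with earlier results of these data known. Named genes were the 7 members, the genes of both lists with a mean of at least 1 TPM (with values for at most 12 of each), and for each member the nearest gene by both values. The 3 zinc finger genes under 1 TPM were named after their values were seen. Alternatives were other pseudocounts, centring, rescaling, other minimum means and folds, the leading transcript alone and other choices of leader.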

Additional observations from a re-analysis of the deposited data

How the results depend on the processing

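No paired analysis was possible because each title has 1 library, and for the same reason no replicate could be left out. All 42 recomputed log2 ratios of the 7 genes stayed above 0, but the choice of pseudocount cannot change the sign of a ratio. Only centring, rescaling and the leading transcript alone could have done so. For the 4 genes with 1 listed transcript, the leading transcript alone repeats the reported ratio and could change nothing. Those repeats are counted among the 42. After centring, 59.6% of all genes were above 0 as well. Of the 42 ratios, 34 kept their side of 2-fold and 5 (ZNF709 and ZNF84) newly passed it. The other 3 no longer did, namely ZNF25 at 0.97 and ZNF286A at 0.87 with 5 TPM added and ZNF836 at 0.70 after centring. The median of the 7 was 2.88 with 0.1 TPM added, 0.97 with 5 TPM, 2.94 with no pseudocount (chosen after seeing the data) and 1.42 after centring. The number higher by 2-fold or more was 3 with 5 TPM added and 2 of 2 at a minimum mean of 10 TPM, where 266 of all 625 genes were. The list of other zinc finger genes had 3 of 7 higher at that minimum and 5 of 15 past 4-fold, a fold that 381 of all 1310 genes passed. Of the 4 genes of the corepressor list, 1 was lower past the limit with no pseudocount, after centring and at 1.5-fold. Of all 1310 genes, 268, 334 and 314 were lower in those settings. Without ZNF25, an alternative chosen after seeing the data, 4 of 6 were higher and the median was 1.66. Of all 1310 genes, 50.8% were higher and the median was 1.04. Picking the leader in Regular gave the other transcript in ZNF709, with a difference of -60.2 points, and another in ZNF25, with -44.2 points. The count of genes with the same leader was 1 of 3 with no minimum mean and 1 of 1 at a minimum of 5 TPM. Over all genes with more than 1 transcript the shares there were 62.8% and 72.2%. Depth is unknown, so values near 0 cannot be told from too few reads.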
